A study of Mus musculus with 6 samples.

Results

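The vesicle release and recycling machinery was examined as 40 genes, chosen by name for their roles as SNARE proteins and their recycling factors, vesicle membrane proteins, synapsins, Rab3 proteins, active zone proteins, fusion regulators and endocytic proteins. All 40 were found among the 24346 gene symbols measured, and all 40 had a mean of at least 1 FPKM (fragments per kilobase, divided by library size), the minimum for testing that 13215 genes met. The libraries were 3 of retinal RNA from mice with a conditional knockout of Cyfip2 (Cyfip2 CKO) and 3 of retinal RNA from control mice labelled Cyfip2 WT, and the study asked how loss of Cyfip2 affects retinal transcription. Cyfip2 encodes a subunit of the WAVE complex, which drives branched actin assembly. The sources used here name neither the recombinase driver, the strain and age of the mice, nor whether the libraries of a group came from separate animals, so p-values measure only the spread between these libraries, which may be technical.

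Neurons release transmitter when vesicles fuse with the presynaptic membrane. VAMP proteins on the vesicle pair with syntaxin and SNAP-25 on the plasma membrane into a SNARE complex, after RIM and Munc13 proteins have docked and primed the vesicle, and the ATPase NSF with its SNAP adaptors takes the spent complex apart. Clathrin, dynamin and their partners then retrieve the membrane. The retina holds 2 kinds of output synapse: the ribbon synapses of photoreceptors and bipolar cells, which lack synapsins and use syntaxin 3 with complexins 3 and 4, and the conventional synapses of amacrine cells, which use complexins 1 and 2 and synapsins.

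Cyfip2, the targeted gene, was at 8.33, 10.25 and 11.16 FPKM in CKO, against 35.45, 63.15 and 62.26 FPKM in WT. All CKO libraries lay below all WT libraries, WT 1 was the lowest WT library, and the log2 fold change was -2.29 (limma adjusted p = 0.02389). This call was lost in 8 of the 17 alternative fits, and when 1 library was left out it held only without WT 1, with log2 fold changes of -2.55 to -2.15 over the 6 such fits. As a check of the tissue, none of the markers listed for cones, bipolar, amacrine, horizontal and ganglion cells and Muller glia was at 0 in any library. The summed level of 6 lens markers reached 219.8 FPKM in WT 2 against 22.7 to 77.8 FPKM in the other libraries.

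No member of the vesicle machinery passed the threshold in CKO against WT retina. Among all 13215 genes, limma called 3 at an adjusted p under 0.05, or 0.0227%, and 0 of the 40 members were called. The smallest adjusted p of a member was 0.3879, for Vamp1, and over all 17 alternative fits it was 0.3145. An unadjusted p under 0.05 was reached by 6 members (15%), 2 higher and 4 lower, against a background of 7.88% of all genes. The median log2 fold change of the members was 0.004, with 23 above 0 and 17 below 0, and that of all genes was -0.0016. Over all 18 fits the members' median ran from -0.0029 to 0.017; without WT 1 it was -0.0025, and without WT 2 it was 0.012.

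The spread between these libraries, moderated by limma over all genes, set how narrowly each member's fold change was estimated. The intervals are per gene, but their widths also draw on the spread of the other genes. Where the libraries of a group are technical, they do not bound a difference between mice, and bulk retina can hide a change within a cell type. The 95% interval of the log2 fold change lay within 0.32 of 0 for 37 of 40 members (92.5%), and within a 1.5-fold change for all 40. Over all genes tested these shares were 62.6% and 92.8%. The members were abundant genes, with a median level of 65.8 FPKM where the median over all tested genes was 12.6 FPKM, and their median standard error was 0.052 on the log2(FPKM + 1) scale, against 0.084 over all genes. The members whose intervals reached past 0.32 were Vamp1, Syn3 and Rab3b.

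**Figure D1:**
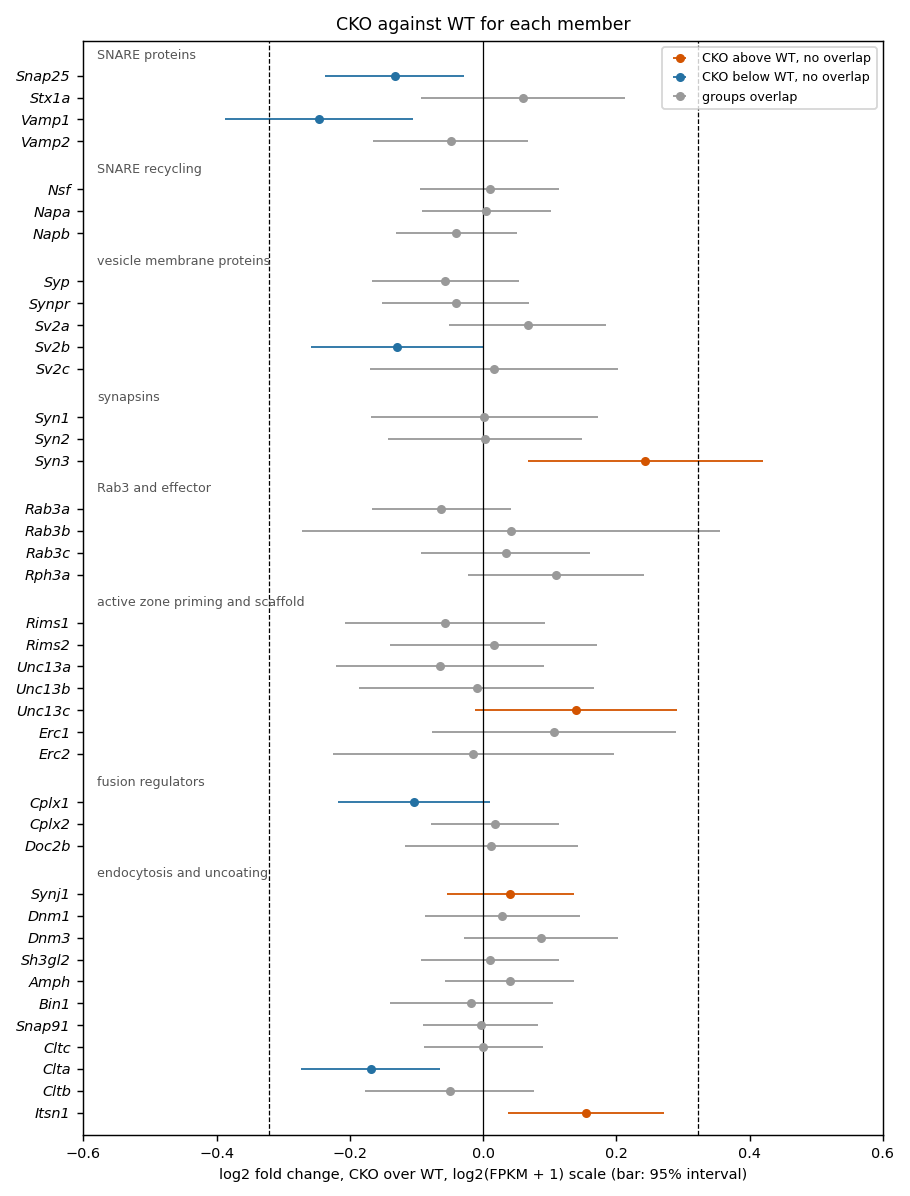
Log2 fold change of each member, CKO over WT, on the log2(FPKM + 1) scale, with its 95% interval from limma; dashed lines mark 0.32 in either direction, and colours show whether the 3 CKO libraries lay all above, all below or among the 3 WT libraries. Points spread on both sides of 0 between -0.25 (Vamp1) and 0.24 (Syn3), and 37 of 40 intervals lie between the dashed lines.

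The CKO and WT libraries did not overlap for 9 of 40 members (22.5%), 4 higher and 5 lower in CKO, against 13.9% of all genes tested. The background in each direction was 6.96% of genes higher and 6.95% lower. The higher members were Syn3, Itsn1, Unc13c and Synj1, and the lower ones were Vamp1, Clta, Snap25, Sv2b and Cplx1. They came from 6 of the 8 roles. The count was 15 without CKO 3 and 15 without WT 2, where fewer libraries had to be separated. Markers of several retinal cell types also lay apart between the groups, and their values are given at the end. None of the 9 passed the adjusted threshold. The sign of each was the same in all 18 fits. Groups without overlap fix that sign in every fit that does not rescale the libraries, so it adds no support for these members.

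**Figure D2:**
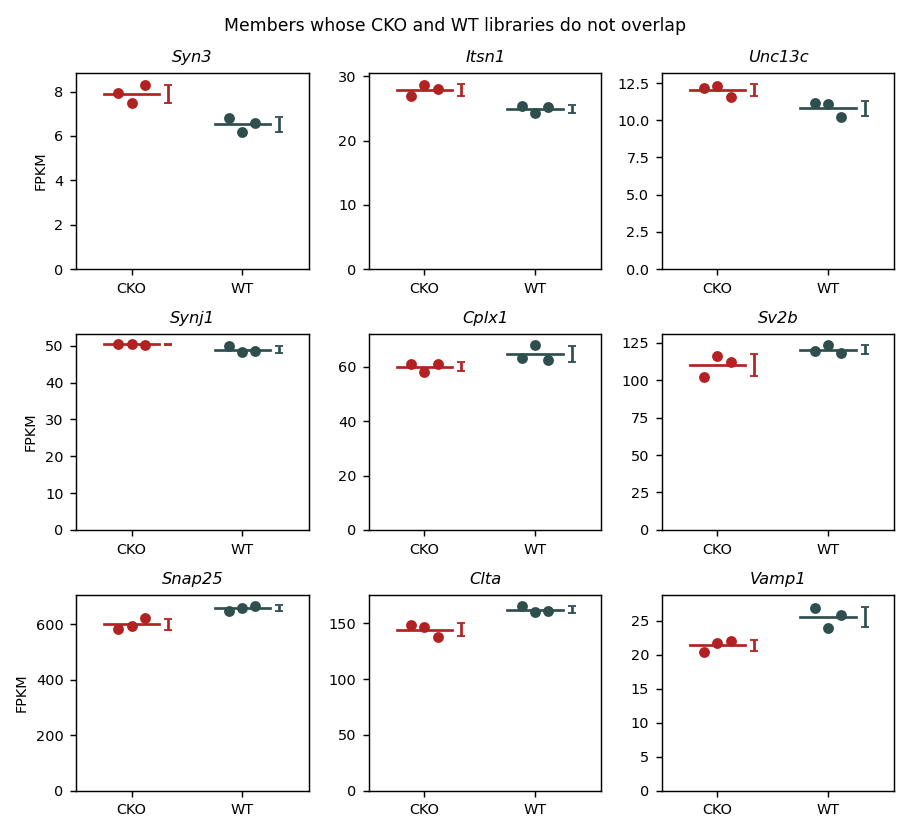
FPKM in each library for the 9 members whose groups did not overlap, CKO left and WT right; points are libraries, the horizontal line is the mean and the bar beside it is ± 1 SD (n = 3). The ratio of CKO to WT means is nearest to 1 for Synj1 (1.03), highest for Syn3 (1.21) and lowest for Vamp1 (0.837).

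Snap25 was the most abundant at 628.8 FPKM over the 6 libraries, followed by Syp (581.3) and Vamp2 (416.6), and then by Rab3a (247.2), Nsf (185.8), Bin1 (169.4), Dnm1 (165.3) and Sv2a (159.2). The libraries of Bin1, Dnm1 and Sv2a overlapped in level. At the low end were Erc1 (9.58), Erc2 (9.53), Syn3 (7.21), Sv2c (5.60) and Rab3b (2.38), and Erc1 and Erc2 overlapped. In all, 14 members were at 100 FPKM or more and 5 were under 10 FPKM. The summed level of the 40 members was 4206.6, 4286.7 and 4378.4 FPKM in CKO, against 4359.7, 4465.2 and 4412.6 FPKM in WT, so the groups overlapped. That sum was 1.04% to 1.06% of all FPKM in CKO and 1.01% to 1.09% in WT.

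**Figure D3:**
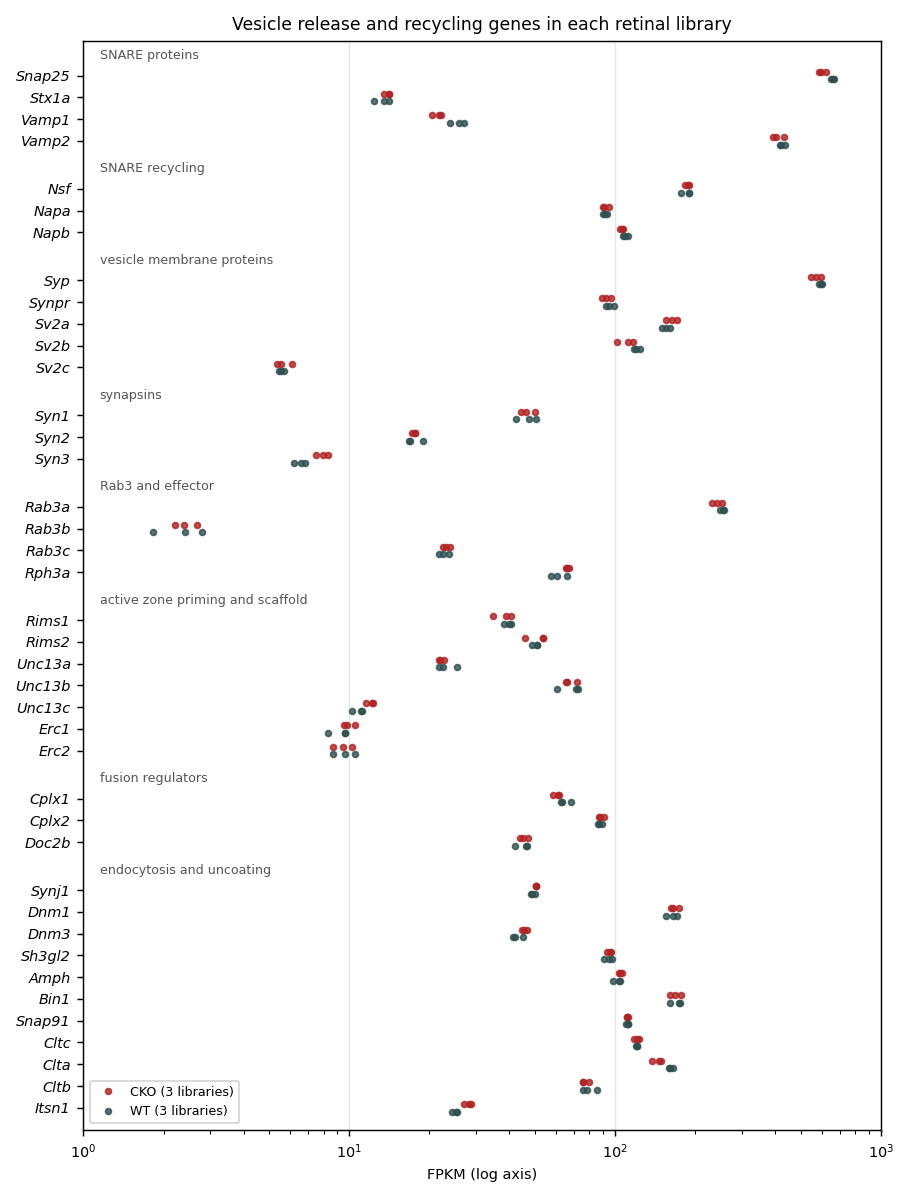
FPKM of each member in every library on a log axis, grouped by role, with the CKO libraries drawn above the WT libraries of the same gene. Levels run from Rab3b near 2.38 FPKM to Snap25 near 628.8 FPKM, and 14 of 40 members lie at 100 FPKM or more.

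Among the SNARE proteins, Vamp1 had the smallest p of all members and was lower in every CKO library. Vamp1 encodes synaptobrevin 1, a vesicle SNARE closely related to the more abundant synaptobrevin 2 of Vamp2. Vamp1 was at 20.48, 21.66 and 22.07 FPKM in CKO, against 26.91, 23.95 and 25.91 FPKM in WT. The gene lies at chromosome 6, 125215551 to 125245964, plus strand (GRCm38). Its log2 fold change was -0.25 (SE 0.061, 95% interval -0.39 to -0.10), with a limma adjusted p of 0.3879. When 1 library was left out, it stayed at -0.29 to -0.21. Vamp2 was at 392.0, 404.2 and 433.1 FPKM in CKO, against 416.9, 420.3 and 433.4 FPKM in WT, and these groups overlapped. Snap25, the plasma membrane SNARE at chromosome 2, 136713453 to 136782428, plus strand that contributes a pair of helices to the complex, was at 584.3, 594.5 and 620.9 FPKM in CKO, against 647.7, 658.0 and 667.6 FPKM in WT. The lowest WT library lay above the highest CKO library, with a log2 fold change of -0.13 (SE 0.045, 95% interval -0.24 to -0.029) and a limma adjusted p of 0.5484. Stx1a, syntaxin 1A, was at a mean of 13.89 ± 0.321 FPKM in CKO libraries and 13.30 ± 0.866 FPKM in WT libraries (SD, n = 3 each), and its groups overlapped.

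To show sequence context, the stretch before the gene start is given for Vamp1, Itsn1 and Syn1. Vamp1 was lower in CKO without passing, and Itsn1 was higher without passing. The groups of Syn1 overlapped, and its promoter held 2 of the motifs searched. Syn3, the member with the highest log2 fold change, had no RefSeq promoter to print. The sequences are from RefSeq promoter windows on GRCm38.p6, cut to the part that lies before every GENCODE M21 start of the gene, and the capitals mark the motifs.
Vamp1: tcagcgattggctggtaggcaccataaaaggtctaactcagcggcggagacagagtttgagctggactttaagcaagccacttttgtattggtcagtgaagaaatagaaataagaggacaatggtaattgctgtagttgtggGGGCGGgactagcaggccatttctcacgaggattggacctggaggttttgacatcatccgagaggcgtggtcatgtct
Itsn1: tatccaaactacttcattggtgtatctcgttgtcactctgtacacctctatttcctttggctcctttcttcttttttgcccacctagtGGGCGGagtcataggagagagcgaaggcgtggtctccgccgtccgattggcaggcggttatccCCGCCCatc
Syn1: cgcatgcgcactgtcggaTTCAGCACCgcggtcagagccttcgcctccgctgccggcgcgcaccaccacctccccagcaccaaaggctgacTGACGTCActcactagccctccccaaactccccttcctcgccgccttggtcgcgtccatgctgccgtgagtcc
The Vamp1 stretch is chr6:125215331-125215550 on the plus strand, the Itsn1 stretch chr16:91729121-91729280 on the plus strand, and the Syn1 stretch chrX:20921005-20921168 on the minus strand. Vamp1 holds 1 copy of the GC box GGGCGG, the letters bound by Sp1. Itsn1 holds 1 GC box in the given direction and 1 in the reverse direction. Syn1 holds the cyclic AMP response element TGACGTCA and TTCAGCACC, the left part of the element bound by the repressor REST.

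Of the 40 members, 34 had a promoter in the RefSeq table. Within 250 bases before a start and on both strands, a GC box stood in 24 of these 34 (70.6%), against 64.5% of the 9983 tested genes with a promoter. TGACGTCA stood in 3 members (8.8%), Syn1, Sh3gl2 and Cltb, against 3.2% of those genes, and TTCAGCACC in 1 member (2.9%), Syn1, against 0.5%. The TATA box TATAAA stood in Rab3b and Sv2b (5.9%, against 7.8%), and the NRF1 palindrome in 0 members (0%, against 1.9%). None of these motifs overlaps another in the printed stretches, and a match describes letters, not binding.

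None of the 3 factors that recycle SNAREs had groups without overlap, where 13.9% of all genes did. Nsf was at 182.9, 189.1 and 187.1 FPKM in CKO, against 189.8, 189.5 and 176.4 FPKM in WT, and its groups overlapped, with a log2 fold change of 0.0095 (-0.095 to 0.11), 95% interval in parentheses. The log2 fold change of Napa, which encodes alpha-SNAP, was 0.005 (-0.092 to 0.10), and for Napb, the neuronal beta-SNAP, it was -0.04 (-0.13 to 0.051). Napb was the more abundant, with a mean of 105.8 FPKM in CKO and 108.8 FPKM in WT, and Napa had 91.73 FPKM in CKO and 91.39 FPKM in WT.

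Of the 5 vesicle membrane proteins, only Sv2b had groups that did not overlap (20%, against 13.9% of all genes). Sv2a, Sv2b and Sv2c encode SV2 glycoproteins of the vesicle membrane. Sv2b (chromosome 7, 75114894 to 75309262, minus strand) was at 101.9, 116.3 and 112.1 FPKM in CKO, against 119.7, 123.5 and 118.1 FPKM in WT, a log2 fold change of -0.13 (SE 0.056, 95% interval -0.26 to -0.00066) with a limma adjusted p of 0.6294. CKO 1 was the lowest library, and without it the fold change was -0.076, the value nearest to 0 in a range of -0.17 to -0.076. Sv2a lay the other way, at 155.0, 163.2 and 170.5 FPKM in CKO, against 150.1, 161.4 and 154.9 FPKM in WT, with overlapping groups and a log2 fold change of 0.067. Sv2b as a share of the summed SV2 level was 38.87%, 40.74% and 38.90% in CKO, against 43.48%, 42.50% and 42.41% in WT, with no overlap. Syp, synaptophysin, was at 546.5, 567.9 and 595.7 FPKM in CKO, against 586.4, 592.8 and 598.5 FPKM in WT, with overlapping groups. Synpr, its relative synaptoporin, had a ratio of CKO to WT means of 0.971, and Sv2c one of 1.01.

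The synapsins, which tether vesicles in the reserve pool, included 1 gene of 3 whose groups did not overlap. That is 33.3% of very few genes, against 13.9% of all genes. Syn1 was at 49.77, 44.14 and 46.33 FPKM in CKO, against 50.37, 47.53 and 42.36 FPKM in WT, and Syn2 was at 17.71, 17.70 and 17.15 FPKM in CKO, against 16.90, 18.87 and 16.75 FPKM in WT. Their groups overlapped, with log2 fold changes of 0.0016 (-0.17 to 0.17) and 0.003 (-0.14 to 0.15), 95% intervals in parentheses. Syn3 (chromosome 10, 86055125 to 86498896, minus strand) was at 7.94, 7.49 and 8.29 FPKM in CKO, against 6.79, 6.17 and 6.60 FPKM in WT, above WT in all CKO libraries, with a log2 fold change of 0.24 (SE 0.076, 95% interval 0.067 to 0.42) and a limma adjusted p of 0.5094. Syn3 held 10.52%, 10.80% and 11.55% of the summed synapsin level in CKO, against 9.170%, 8.498% and 10.05% in WT. In GENCODE M21, 1733 exon bases of Syn3 (14.1% of its exon sequence) overlap exons of Timp3 on the opposite strand, and Timp3 was the more abundant gene, at 18.73, 22.00 and 20.70 FPKM in CKO, against 20.59, 20.23 and 21.61 FPKM in WT. The Timp3 groups overlapped. The sources used here do not state how the authors' counting used strand, so reads of Syn3 and Timp3 in the shared bases cannot be told apart. Such overlaps were not particular to Syn3. Exons on the opposite strand also covered 16.8% of the exon sequence of Syp, 11.8% of that of Erc1 and 9.0% of that of Rab3b.

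Rab3 GTPases mark vesicles for docking, and rabphilin 3A, from Rph3a, binds them. Rab3a made up 90.06% of the summed level of the 4 Rab3 genes and was at 251.1, 242.3 and 232.2 FPKM in CKO, against 254.9, 255.9 and 246.9 FPKM in WT. Its CKO and WT libraries overlapped, with a log2 fold change of -0.063 (-0.17 to 0.041), 95% interval in parentheses. Rab3c was at a mean of 23.21 ± 0.663 FPKM in CKO libraries and 22.66 ± 0.985 FPKM in WT libraries (SD, n = 3 each), and Rab3b at a mean of 2.42 ± 0.234 FPKM in CKO libraries and 2.34 ± 0.488 FPKM in WT libraries (SD, n = 3 each). Rph3a was at 67.01, 65.66 and 65.57 FPKM in CKO, against 60.59, 66.03 and 57.29 FPKM in WT, and WT 2 was the library that overlapped CKO. Its log2 fold change was 0.11 (SE 0.057, 95% interval -0.023 to 0.24), with a limma adjusted p of 0.7083.

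At the active zone, 1 of 7 members (14.3%) had groups that did not overlap, a share near the 13.9% of all genes. Unc13c (chromosome 9, 73479422 to 73968966, minus strand), which encodes the priming factor Munc13-3, was at 12.18, 12.32 and 11.55 FPKM in CKO, against 11.15, 11.07 and 10.23 FPKM in WT. The groups lay close together, with a log2 fold change of 0.14 (SE 0.065, 95% interval -0.012 to 0.29) and a limma adjusted p of 0.6618. Unc13b, Munc13-2, was the most abundant of the 3 Munc13 genes (66.49% of their sum) and was at 65.74, 65.06 and 71.75 FPKM in CKO, against 60.59, 71.12 and 72.72 FPKM in WT. Here WT 1 was the lowest of the 6 libraries and WT 3 the highest, with a log2 fold change of -0.0099. Unc13a, Munc13-1, was at a mean of 22.14 ± 0.475 FPKM in CKO libraries and 23.26 ± 1.98 FPKM in WT libraries (SD, n = 3 each). Exons of Unc13a overlap those of Colgalt1 on the opposite strand over 495 bases, and Colgalt1 was at 20.59, 22.15 and 20.17 FPKM in CKO, against 19.32, 19.14 and 18.62 FPKM in WT, with every CKO library above WT. The RIM scaffolds Rims1 and Rims2 and the ELKS scaffolds Erc1 and Erc2 overlapped between groups, with log2 fold changes of -0.057 (-0.21 to 0.092), 0.016 (-0.14 to 0.17), 0.11 (-0.077 to 0.29) and -0.015 (-0.23 to 0.20) in that order, 95% intervals in parentheses.

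Complexins bind the assembled SNARE complex and hold or release fusion. Cplx1 (chromosome 5, 108518554 to 108550024, minus strand), complexin 1, was at 61.25, 58.23 and 60.97 FPKM in CKO, against 63.26, 68.18 and 62.75 FPKM in WT, so the lowest WT library exceeded the highest CKO library by a small margin. Its log2 fold change was -0.10 (SE 0.049, 95% interval -0.22 to 0.011), with a limma adjusted p of 0.6716. Cplx2 was at 87.67, 86.60 and 91.11 FPKM in CKO, against 86.88, 86.23 and 88.94 FPKM in WT, with overlapping groups. Doc2b, a calcium-binding protein with C2 domains that promotes fusion, was at a mean of 45.25 ± 1.59 FPKM in CKO libraries and 44.88 ± 2.60 FPKM in WT libraries (SD, n = 3 each).

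Among 11 endocytic genes, Clta and Itsn1 had the smallest p values, in opposite directions. Clta encodes a light chain of clathrin, the coat protein of endocytic vesicles. Clta (chromosome 4, 44004452 to 44032846, plus strand) was at 148.1, 146.7 and 137.4 FPKM in CKO, against 165.6, 159.9 and 160.7 FPKM in WT, lower in every CKO library, with a log2 fold change of -0.17 (SE 0.045, 95% interval -0.27 to -0.065) and a limma adjusted p of 0.4182. The other light chain, Cltb, was at 75.93, 75.54 and 79.95 FPKM in CKO, against 78.55, 85.46 and 75.93 FPKM in WT, with overlapping groups, and the heavy chain, Cltc, had a log2 fold change of 0.00013 (-0.089 to 0.089), 95% interval in parentheses. Although Clta was lower, its share of the light chains overlapped between groups, at 66.11%, 66.02% and 63.22% in CKO, against 67.82%, 65.17% and 67.91% in WT. Itsn1 (chromosome 16, 91729281 to 91920597, plus strand), the scaffold intersectin 1, was at 26.91, 28.69 and 28.10 FPKM in CKO, against 25.42, 24.24 and 25.25 FPKM in WT. All its CKO libraries lay above WT, with a log2 fold change of 0.15 (SE 0.051, 95% interval 0.037 to 0.27) and a limma adjusted p of 0.5383.

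Of the other 9 endocytic genes, only Synj1 had groups without overlap. That made 3 of 11 endocytic genes (27.3%), against 13.9% of all genes. Synj1 (chromosome 16, 90936092 to 91011308, minus strand), the lipid phosphatase synaptojanin 1 that acts in uncoating, was at 50.53, 50.41 and 50.25 FPKM in CKO, against 50.02, 48.36 and 48.52 FPKM in WT. The CKO libraries were nearly equal, and the log2 fold change was 0.041 (-0.054 to 0.14), with a 95% interval that spanned 0 (limma adjusted p = 0.8539). The dynamin GTPases that cut the vesicle neck were Dnm1, at a mean of 166.9 ± 6.24 FPKM in CKO libraries and 163.6 ± 7.58 FPKM in WT libraries (SD, n = 3 each), and Dnm3. Dnm3, among the 10 members of smallest p, was at 45.55, 46.38 and 44.48 FPKM in CKO, against 41.23, 45.05 and 42.02 FPKM in WT, where WT 2 overlapped CKO (limma adjusted p = 0.737). The membrane-bending proteins Bin1, Amph and Sh3gl2, which encodes endophilin A1, had log2 fold changes of -0.018 (-0.14 to 0.10), 0.04 (-0.057 to 0.14) and 0.01 (-0.093 to 0.11) in that order. Bin1 was the most abundant endocytic member, at 161.3, 167.7 and 176.1 FPKM in CKO, against 161.1, 174.2 and 176.0 FPKM in WT. Snap91, the clathrin adaptor AP180, was the member with the smallest standard error, at a mean of 110.8 ± 0.790 FPKM in CKO libraries and 111.1 ± 1.10 FPKM in WT libraries (SD, n = 3 each), and a log2 fold change of -0.0039 (-0.09 to 0.082).

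Paralogs within a family were compared by their share of the family's summed level in each library, a measure in which the scale of a library cancels. Vamp1 made up 4.967%, 5.087% and 4.849% of Vamp1 and Vamp2 together in CKO, against 6.065%, 5.391% and 5.641% in WT, and the groups did not overlap. Cplx1 made up 12.32%, 11.81% and 11.92% of the 4 complexins in CKO, against 12.98%, 13.45% and 12.51% in WT, also without overlap. Rab3a made up 89.89%, 89.74% and 89.60% of the Rab3 genes in CKO, against 90.15%, 90.44% and 90.52% in WT, without overlap by a narrow margin. Unc13c made up 12.21%, 12.40% and 10.90% of the Munc13 genes in CKO, against 11.94%, 10.28% and 9.695% in WT, and here WT 1 lay among the CKO libraries. Shares are descriptions with no test, since the families were chosen with the gene values known.

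**Figure D4:**
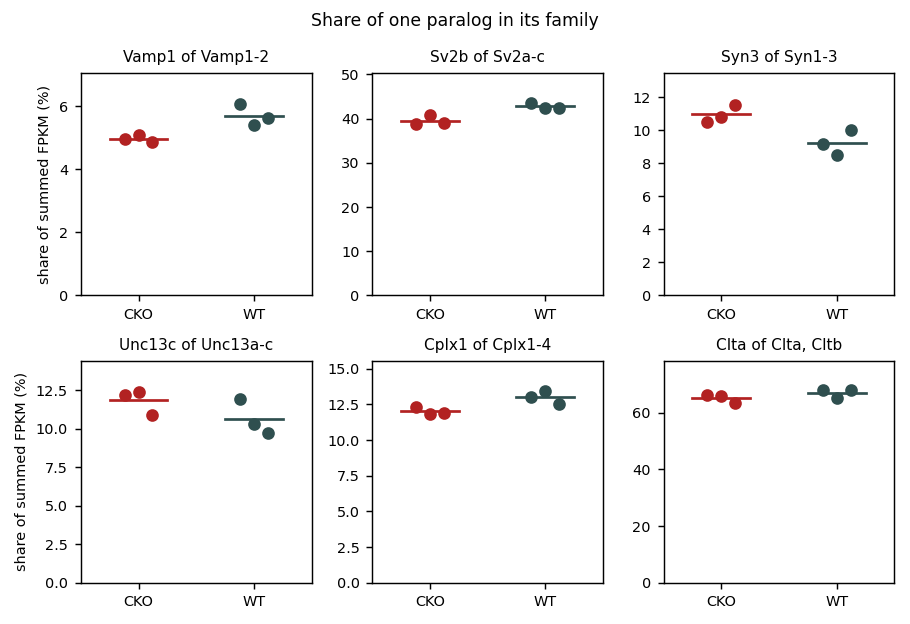
Share of 1 paralog in the summed FPKM of its family, in percent, for each library, CKO left and WT right; the line is the group mean. Vamp1, Sv2b and Cplx1 shares are lower and Syn3 shares higher in all CKO libraries, while Unc13c and Clta shares overlap.

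The forms used at conventional and at ribbon synapses were set side by side. Of the 7 conventional forms among the members (Syn1, Syn2, Syn3, Stx1a, Cplx1, Cplx2 and Rph3a), 6 had log2 fold changes above 0, with a median of 0.018 that ran from 0.014 to 0.055 with a library left out. The 2 of 7 without overlap were Syn3, higher, and Cplx1, lower, where 13.9% of all genes were without overlap. Of 5 ribbon forms (Stx3, Cplx3, Cplx4, Unc13b and Rims2), 2 were above 0, with a median of -0.0099 that ran from -0.046 to 0.023 with a library left out. Cplx4 alone (20%, against 13.9% of all genes) was without overlap, at 193.4, 189.6 and 189.5 FPKM in CKO, against 194.8, 200.7 and 193.5 FPKM in WT. The difference between the forms was not tested, and the ribbon median turned positive with quantile normalization (0.015) and without WT 2 (0.023). Stx3, the ribbon syntaxin, was at 226.9, 236.3 and 237.8 FPKM in CKO, against 235.1, 240.2 and 256.8 FPKM in WT, with overlapping groups.

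Of 117 other genes of vesicle release and recycling, 113 were tested and limma called 0. An unadjusted p under 0.05 was reached by 2 (1.8%), against 7.88% of all genes, and groups did not overlap for 12 (10.6%), against 13.9%. The count of 2 was not stable. It was 5 without CKO 1, CKO 3 or WT 2, and 6 without WT 1. It was also 6 under the replicate block, 5 with sample weights and 7 with quantile normalization. The count of 12 was 21 to 31 with any 1 library left out, where fewer libraries had to be separated and it could only rise. Their median log2 fold change was 0.012, with 65 above 0 and 48 below 0. Not tested were Vamp7, which was listed at 0 in all 6 libraries, Sypl2, Dnajc5b and Unc13d. Of the 16 other active zone genes, 12 lay above 0, where 6537 of all 13215 genes did. Groups did not overlap for 4 of the 16, all higher in CKO (against 6.96% of all genes): Ppfia4, Rimbp2, Bsn and Pclo. The count was 3 of 20 for other SNAREs and their regulators and 1 of 18 for other vesicle proteins. It was 1 of 19 for other Rab and release regulators and 3 of 40 for other endocytic genes. The active zone list was singled out with these values known, and differences between the lists were not tested. Ppfia4, the scaffold liprin-alpha-4, was at 15.42, 16.25 and 15.60 FPKM in CKO, against 12.99, 14.56 and 12.65 FPKM in WT, with a log2 fold change of 0.22 (SE 0.069, 95% interval 0.062 to 0.38) and a limma adjusted p of 0.5073. Rimbp2, a protein that links RIM to calcium channels, was at 14.27, 12.92 and 13.48 FPKM in CKO, against 11.30, 12.38 and 10.16 FPKM in WT, with a log2 fold change of 0.25 (SE 0.082, 95% interval 0.058 to 0.44) and a limma adjusted p of 0.5383. Bsn and Pclo, the large scaffolds bassoon and piccolo, followed: Bsn was at a mean of 16.71 ± 0.946 FPKM in CKO libraries and 15.05 ± 0.534 FPKM in WT libraries (SD, n = 3 each), and Pclo was at a mean of 21.47 ± 0.416 FPKM in CKO libraries and 20.01 ± 0.313 FPKM in WT libraries (SD, n = 3 each).

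Further genes of smallest p among these, higher in CKO, were Rab3gap2, a subunit of the Rab3 GTPase-activating complex, at 15.09, 17.85 and 17.73 FPKM in CKO, against 14.94, 15.12 and 14.48 FPKM in WT, and Syngr3, the vesicle protein synaptogyrin 3, at 34.79, 34.31 and 32.96 FPKM in CKO, against 29.94, 32.99 and 30.63 FPKM in WT. In each, 1 CKO library reached down into the WT range. On the lower side were Epn1, the endocytic adaptor epsin 1, Sh3glb1, an endophilin B, Gak, an uncoating kinase, and Ap2a1, a subunit of the clathrin adaptor AP-2. Epn1 was at 70.22, 69.13 and 70.70 FPKM in CKO, against 75.43, 75.59 and 72.11 FPKM in WT, without overlap and with a log2 fold change of -0.086 (SE 0.041, 95% interval -0.18 to 0.01) and a limma adjusted p of 0.6767. Log2 fold changes of Sh3glb1, Gak and Ap2a1 were -0.11, -0.11 and -0.081 in that order, with overlapping groups.

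Summed markers of amacrine, ganglion, horizontal, bipolar and cone cells did not overlap between the groups, though no single marker passed the adjusted threshold. In bulk retina, fewer cells of a type and less RNA per cell cannot be told apart. Over all genes tested, groups did not overlap for 6.96% higher and 6.95% lower in CKO. Of 6 amacrine markers, 5 had groups without overlap, all higher in CKO, and their summed level was 436.6 to 452.7 FPKM in CKO and 382.3 to 406.9 FPKM in WT. Of 6 ganglion cell markers, 4 were lower without overlap, with sums of 593.8 to 615.3 FPKM in CKO and 643.2 to 693.3 FPKM in WT. Nefl, at means of 221.1 FPKM in CKO and 266.0 FPKM in WT, weighed heavily in these sums. Without Nefl the ganglion cell sums overlapped, with CKO 3 above WT 1. Groups overlapped for Sncg (means of 216.4 FPKM in CKO and 215.3 FPKM in WT) and Rbpms (20.00 and 21.75 FPKM). Of 6 horizontal cell markers, 4 were lower without overlap, with sums of 96.7 to 97.3 FPKM in CKO and 102.1 to 114.3 FPKM in WT. Onecut1 lay the other way, at means of 3.51 FPKM in CKO and 2.89 FPKM in WT with overlapping groups. Prox1, the most abundant of the 6, was nearly equal, at means of 52.39 FPKM in CKO and 52.67 FPKM in WT. Without Calb1 the horizontal cell sums overlapped. Bipolar markers (2 of 6 lower without overlap) summed to 452.5 to 463.5 FPKM in CKO and 474.0 to 486.4 FPKM in WT. Cone markers (2 of 6 lower without overlap) summed to 496.3 to 547.9 FPKM in CKO and 557.5 to 603.5 FPKM in WT. Without Opn1mw, or without Opn1sw, the cone sums overlapped. The sum of 5 rod markers (1 of 5 lower without overlap) was 4501 to 4726 FPKM in CKO and 4532 to 5025 FPKM in WT and overlapped. Muller glia sums (1 of 6 lower without overlap), at 1759 to 1888 FPKM in CKO and 1765 to 1846 FPKM in WT, overlapped as well. Sums for microglia (19.0 to 21.8 FPKM in CKO and 20.6 to 28.0 FPKM in WT), pigment epithelium (9.2 to 12.9 FPKM in CKO and 5.5 to 12.9 FPKM in WT) and endothelium with pericytes (124.2 to 136.3 FPKM in CKO and 123.1 to 132.4 FPKM in WT) overlapped too, with 2 of 6 endothelial and pericyte markers lower without overlap. The part of these shifts in the values of the 9 members without overlap was not tested.

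**Figure D5:**
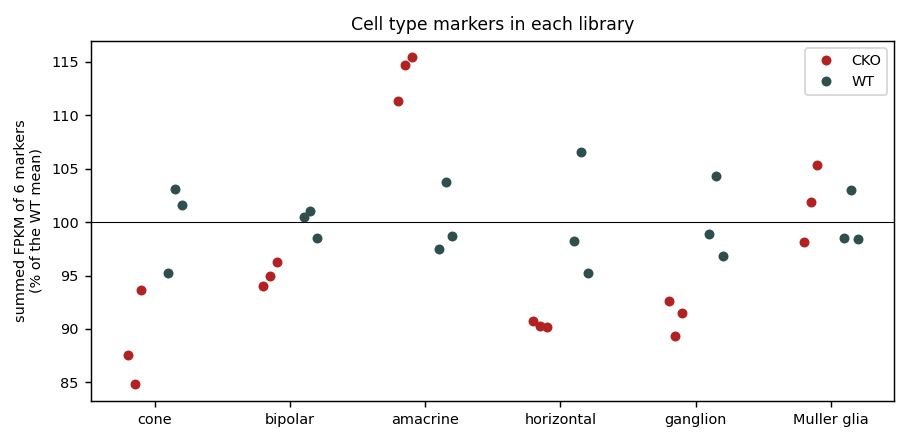
Summed FPKM of 6 markers per retinal cell type in each library, as a percentage of the WT mean (axis not starting at 0), with CKO points left of WT points. The CKO libraries lie above WT for amacrine markers, below WT for cone, bipolar, horizontal and ganglion cell markers, and among WT for Muller glia markers.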

How the data were processed

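RNA from mouse retina was profiled in 6 libraries, 3 CKO and 3 WT, grouped by their titles. Per the labels' protocols, TRIzol was used for the total RNA and an Illumina TruSeq kit that keeps strand for the mRNA libraries. TopHat2 (2.0.13), Bowtie2 (2.3.5.1), SAMtools (1.11) and Cufflinks (2.2.1), with build mm10, appear in the submitters' processing notes, which assign them no roles. The deposited values are FPKM, 1 per gene symbol; 27 symbols turned into dates in WT 3 were restored from the matching rows of the other files. No counts are kept in FPKM, and the depth is known only relative to WT 1, at 1.03 to 1.30 in the other libraries: at genes under 0.3 FPKM, 69.4% to 74.1% of the ratios to WT 1 were within 0.02 (log2) of small whole-number ratios. Without counts, intervals come from the spread between libraries, moderated over all genes.

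Values were tested as log2(FPKM + 1), in genes averaging 1 FPKM or more, with limma 3.58.1 in R 4.3.3 (eBayes with a variance trend, two-sided, no covariate, Benjamini-Hochberg adjustment over all 13215 genes at 0.05). Fold changes on this scale understate changes of low genes. Lists were described by counts and medians only, and a few genes are not reported here. Positions, exon overlaps and promoters came from GENCODE M21 and RefSeq on GRCm38, the assembly also named mm10. The members and lists were chosen with earlier results of these data known. Values in every library are given for members without overlap between groups, the 10 members of smallest p, the most abundant member of each role, and, of the other vesicle genes, the 4 of smallest p in each direction; other genes were named after their values were seen. Alternatives were other pseudocounts, filters, scalings and moderation, the replicate block, sample weights and leaving out each library.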

Additional observations from a re-analysis of the deposited data

How the results depend on the processing

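The count of 0 called members, and of 0 called among the other vesicle genes, held in all 17 alternative fits, and the members at an unadjusted p under 0.05 numbered 4 to 7. Over all genes, the number called higher was 1 under the replicate block and without the variance trend, and 1 to 3 when a library was left out; the number called lower was 0 with no filter, without the variance trend and with robust eBayes, and 0 to 1 when a library was left out. Cyfip2 kept its fold change of -2.29 but not its call in those 3 settings; with a library left out it was -2.55 to -2.15. Members without overlap numbered 10 to 15 and other vesicle genes without overlap 21 to 31 when a library was left out, where fewer values had to be separated. The other vesicle genes at an unadjusted p under 0.05 numbered 7 with quantile normalization, 6 under the replicate block, 5 with sample weights and 2 to 6 with a library left out. Replicate numbers are not stated to pair libraries, the correlations of same-numbered deviations were 0.072, 0.0063 and 0.101, and the replicate block left 6 members at an unadjusted p under 0.05, as without it, and called 0 members and 0 other vesicle genes.

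Medians that moved beyond the spread between libraries were those of SNARE recycling (-0.0253 to 0.0192 with a library left out), active zone members (0.025 with sample weights, -0.0801 to 0.0386 with a library left out), fusion regulators (-0.0356 to 0.0307 with a library left out) and ribbon forms (0.015 with quantile normalization, -0.034 with sample weights, -0.046 to 0.0228 with a library left out). Signs of members near 0 turned: Syn1 (-0.034), Syn2 (-0.009) and Erc2 (0.025) with sample weights, and Unc13b (0.015) and Snap91 (0.0075) with quantile normalization. With a library left out, log2 fold changes of members whose sign turned were -0.0253 to 0.0275 for Nsf, -0.019 to 0.0192 for Napa, -0.0298 to 0.0495 for Sv2c, -0.0662 to 0.0561 for Syn1, -0.0263 to 0.0553 for Syn2, -0.0755 to 0.14 for Rab3b, -0.10 to 0.0061 for Rims1, -0.0227 to 0.0891 for Rims2, -0.091 to 0.0386 for Unc13b, -0.0808 to 0.0445 for Erc2, -0.0034 to 0.0328 for Cplx2, -0.0356 to 0.037 for Doc2b, -0.0077 to 0.0581 for Dnm1, -0.0196 to 0.0349 for Sh3gl2, -0.0573 to 0.0127 for Bin1, -0.0118 to 0.0016 for Snap91, -0.0135 to 0.0142 for Cltc. The cause was not tested.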
